A study of Drosophila melanogaster with 2 samples.

Results

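The aminoacyl-tRNA synthetase genes of Drosophila melanogaster were examined for binding of charlatan, a zinc finger transcription factor that is the product of chn. They were taken by symbol from the protein-coding genes of Ensembl release 115: a three-letter amino acid code followed by RS, with or without the suffix -m, together with GluProRS. The rule found 33 genes among 13986 protein-coding genes. Of these, 18 have a symbol without the suffix and are here called cytoplasmic, and 15 carry the suffix -m, which marks the mitochondrial enzyme. The 2 subunit genes of the cytoplasmic phenylalanyl enzyme, alpha-PheRS and beta-PheRS, have symbols of another form and are described with the related genes.

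The data are chromatin immunoprecipitation (ChIP-seq) peak lists from whole embryos of both sexes, 0 to 24 h old, of the transgenic strain chn-GFP. This strain stably makes charlatan with GFP at its C-terminal end, and the chromatin was precipitated with an antibody against GFP. The 2 samples were biological replicates of 1 group, and the design held no contrast between conditions. The labels do not name the promoter that drives the tagged protein, and a whole embryo mixes all cell types, so a peak cannot be placed in a cell type.

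Aminoacyl-tRNA synthetases join each amino acid to its tRNA and so supply the ribosome with charged tRNA. In animals most cytoplasmic and mitochondrial enzymes are made from separate nuclear genes, and the mitochondrial enzymes are imported after synthesis. Where the fly has no separate -m gene, as for HisRS, GlyRS, LysRS and ThrRS, 1 symbol may cover both forms. The enzymes fall into a pair of structural classes, I and II, and several cytoplasmic enzymes are held in a multisynthetase complex.

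A gene was counted as bound if a summit of the thresholded list, which holds 4537 peaks retained at a cutoff on the irreproducible discovery rate, lay within 1000 bp of 1 of its transcription start sites (TSSs). Peaks were ranked by the deposited signal value, rank 1 being the highest. Signal values are the authors' and were used within a list only. Beyond the thresholded peaks, a relaxed list of 30000 peaks was deposited for the pool and for each replicate.

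The sequences under the peaks are shown for the genes that the results turn on. They run from 50 bp before to 50 bp after the summit, on build dm6 (Release 6 genome), and are written 5′ to 3′ on the strand of the synthetase gene. Shown are the strongest peaks of 5 genes, both peaks of LeuRS-m, of which 1 lies far from its start, and the peak of TrpRS, which holds a known promoter element. Capitals mark the E-box CAGCTG, the DNA replication-related element (DRE) TATCGATA, and ATCGATA, which lies within it.
SerRS, chr2L:3037272-3037372, minus strand: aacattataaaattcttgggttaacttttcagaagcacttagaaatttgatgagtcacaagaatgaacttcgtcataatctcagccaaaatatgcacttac
LeuRS-m, distant peak, chr3L:4824971-4825071, plus strand: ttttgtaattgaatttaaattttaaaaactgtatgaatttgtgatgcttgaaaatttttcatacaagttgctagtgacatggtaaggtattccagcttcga
LeuRS-m, near peak, chr3L:4825718-4825818, plus strand: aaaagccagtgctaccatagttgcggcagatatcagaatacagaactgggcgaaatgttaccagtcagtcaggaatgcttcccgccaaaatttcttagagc
GluProRS, chr3R:23958498-23958598, minus strand: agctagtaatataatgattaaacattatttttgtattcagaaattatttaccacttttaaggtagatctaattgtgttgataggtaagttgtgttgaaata
IleRS, chr3L:22288507-22288607, plus strand: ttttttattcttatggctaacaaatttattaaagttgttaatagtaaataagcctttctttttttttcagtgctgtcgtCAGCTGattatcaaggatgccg
ThrRS, chr2L:12103513-12103613, plus strand: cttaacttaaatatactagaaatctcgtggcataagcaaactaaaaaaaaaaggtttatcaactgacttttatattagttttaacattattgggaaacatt
ArgRS, chrX:15844225-15844325, minus strand: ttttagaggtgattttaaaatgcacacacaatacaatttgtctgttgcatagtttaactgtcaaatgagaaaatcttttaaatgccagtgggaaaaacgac
TrpRS, chr3R:9266903-9267003, minus strand: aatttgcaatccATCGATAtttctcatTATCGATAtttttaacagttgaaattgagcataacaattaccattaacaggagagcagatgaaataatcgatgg
The sequences of SerRS, GluProRS and the distant LeuRS-m peak, from the 3 strongest of these peaks, carry none of these motifs, while that of IleRS carries the E-box and that of TrpRS the DRE. The GC content of the printed windows of GluProRS and ThrRS was 23.8% and 24.8%, and that of the near LeuRS-m window was 45.5%. In windows of 100 bp to each side, the 14 thresholded summits at synthetase genes had a median GC content of 35.6% (26.9 to 46.3%), and all 2772 thresholded summits within 1000 bp of a TSS had a median of 38.3%.

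Of the 33 synthetase genes 11 were bound (33.3%), against 3370 of all protein-coding genes, or 24.1%. The 11 were ArgRS, AsnRS, AspRS, GluProRS, IleRS, SerRS, ThrRS and TrpRS among the cytoplasmic genes and ArgRS-m, LeuRS-m and PheRS-m among the mitochondrial ones. A further 16 had a summit in the relaxed pooled list only, which gives 27 of 33 genes (81.8%) with any listed summit, against 60.2% of all protein-coding genes. The remaining 6, with no pooled summit within 1000 bp of a TSS, were AsnRS-m, CysRS, IleRS-m, LeuRS, TyrRS-m and ValRS-m. Among the 1000 strongest peaks, 4 genes kept a peak (SerRS, LeuRS-m, GluProRS and IleRS), where 7.15% of all protein-coding genes had one. Ribosomal protein genes, taken by symbol (RpL or RpS and a number), had 59 of 88 bound (67.0%), and mitochondrial ribosomal protein genes 33 of 73 (45.2%). No test was made of these differences, since the counts come from 1 set of peaks and genes are not replicates.

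**Figure D1:**
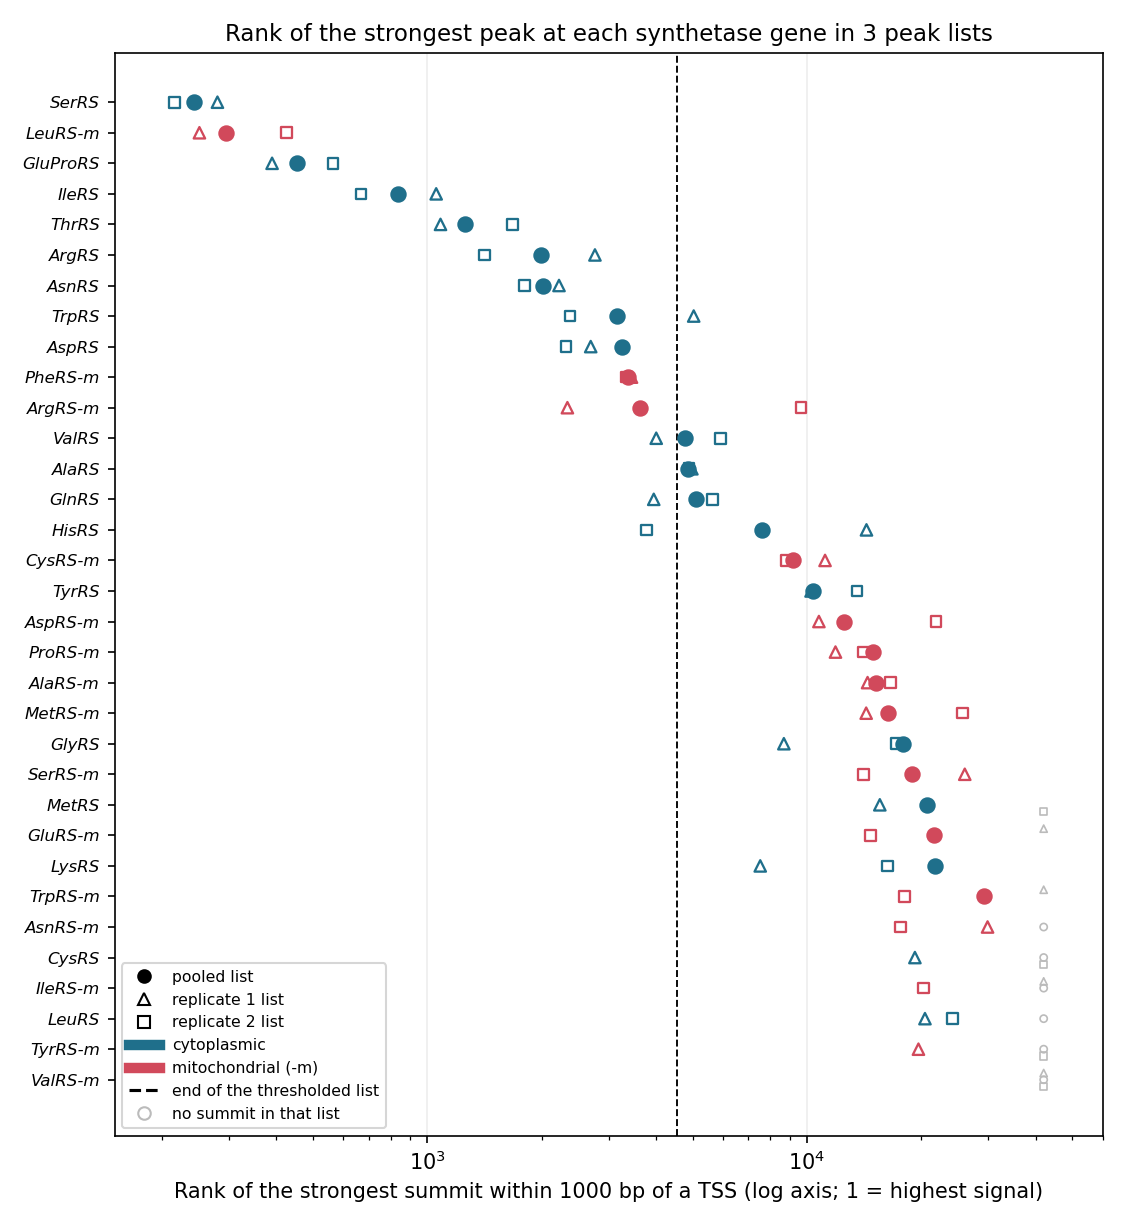
Rank of the strongest summit within 1000 bp of a TSS of each synthetase gene in the pooled list (filled circles), the replicate 1 list (triangles) and the replicate 2 list (squares), on a log axis that runs from high to low signal. Grey symbols at the right mark lists without a summit, and the dashed line marks rank 4537; 11 genes lie to its left in the pooled list, from SerRS at rank 243 to ArgRS-m at rank 3622.

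The strength of the 11 peaks spanned most of the thresholded list. Taking the strongest peak of each gene, ranks ran from 243 to 3622 with a median of 1989, and the median over all 3370 bound protein-coding genes was 1888. The median signal was 123, and over all bound genes it was 127. Synthetase peaks were thus found from among the strong peaks to the lower part of the list.

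SerRS, the seryl enzyme, had the strongest peak, with a signal of 344 in the pool and 188 and 155 in replicates 1 and 2 (2L, 3037212 to 3037400). Its summit at 3037322 lay 59 bp upstream of the nearest of 2 SerRS starts, in the 5′ UTR of a longer SerRS transcript and in an intron of CG17260, and ranked 243 in the pool, 280 in replicate 1 and 216 in replicate 2. A second SerRS summit 206 bp away ranked 1312 in the pool and 757 in replicate 2, and replicate 1 listed no summit within 100 bp of it. The intervals of the pair overlapped by 16 bp, so they may stand for 1 site.

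GluProRS makes the bifunctional enzyme that charges tRNAs for both glutamate and proline. Its peak (3R, 23958348 to 23958747) had a pooled signal of 260 and ranked 453 in the pool, 390 in replicate 1 and 564 in replicate 2. The peak of IleRS, the isoleucyl enzyme (3L, 22288357 to 22288756), had a pooled signal of 195 and ranks of 836, 1055 and 669 in the same order. ThrRS, the threonyl enzyme, followed with a pooled signal of 162 and ranks of 1253, 1083 and 1675 (2L, 12103363 to 12103762). These 3 peaks lay between 108 and 188 bp upstream of the synthetase start, outside any protein-coding gene, and both replicates listed each of them among their strongest 4537.

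ArgRS and AsnRS, for arginine and asparagine, had peaks of middle strength. The ArgRS peak (X, 15844075 to 15844474, signal 123) ranked 1989 in the pool, 2763 in replicate 1 and 1416 in replicate 2. The AsnRS peak (2L, 19131846 to 19132245, signal 121) ranked 2021, 2222 and 1801. TrpRS, for tryptophan, had a weaker peak 49 bp from its start (3R, 9266753 to 9267152, signal 91.4), ranked 3166 in the pool, 5029 in replicate 1 and 2376 in replicate 2. In replicate 1 it therefore fell outside the strongest 4537.

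AspRS, the aspartyl enzyme, has 3 annotated starts and had 2 overlapping peaks, with summits 208 bp apart. The first (2R, 12879770 to 12880169, signal 90.1) ranked 3259 in the pool and 2693 in replicate 1 and had no match within 100 bp in replicate 2. The second (2R, 12879978 to 12880377, signal 88.7) ranked 3344 in the pool, 4787 in replicate 1 and 2320 in replicate 2. Each replicate thus placed 1 of the pair among its strongest 4537, and not the same one. The first summit lay in introns of AspRS and Nmda1, and the second in 5′ UTRs of both genes. With the outermost start of each gene alone, AspRS was not bound.

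Among the mitochondrial genes, LeuRS-m had the strongest peak and also the most distant one. This peak (3L, 4824933 to 4825125, signal 313) ranked 295 in the pool, 251 in replicate 1 and 425 in replicate 2. Its summit lay 832 bp upstream of LeuRS-m but in an intron of Dhc64C, the cytoplasmic dynein heavy chain gene, 666 bp from its start. A separate peak 747 bp away (3L, 4825568 to 4825967, signal 94.8), 85 bp from LeuRS-m and 81 bp from Dhc64C, ranked 2985, 3746 and 2433. The high rank of LeuRS-m thus came from the peak inside its neighbour, and the peak at its own start was in the lower part of the list.

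PheRS-m and ArgRS-m had weak peaks. The PheRS-m peak (2R, 13968025 to 13968424, signal 88.1) lay 83 bp upstream and ranked 3368 in the pool, 3449 in replicate 1 and 3347 in replicate 2. The ArgRS-m peak (3R, 7886730 to 7887129, signal 84.1) ranked 3622 in the pool and 2338 in replicate 1 but 9643 in replicate 2. Replicate 2 alone would not have placed ArgRS-m among the bound genes.

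A larger share of the cytoplasmic than of the mitochondrial genes was bound in these lists, and a larger share had a neighbour at the promoter. Of the 18 cytoplasmic genes 8 were bound (44.4%), and of the 15 mitochondrial genes 3 (20.0%), beside 24.1% of all protein-coding genes. Every cytoplasmic gene had a TSS of another protein-coding gene within 1000 bp of its own, against 7 of 15 mitochondrial genes and 42.9% of all protein-coding genes. A divergent partner, on the other strand with its start upstream within 1000 bp, was annotated for 16 cytoplasmic and 7 mitochondrial genes. These were 69.7% of the synthetase genes, against 36.2% of all protein-coding genes. Protein-coding genes with any such neighbouring TSS were bound in 37.6% of cases, those with a divergent partner in 42.0%, and those with no other TSS within 1000 bp in 14.0%. Among synthetase genes with a divergent partner, 8 of 16 cytoplasmic and 2 of 7 mitochondrial genes were bound. Together these were 10 of 23 (43.5%), near the 42.0% of all protein-coding genes with such a partner. Of the 8 mitochondrial genes with no neighbouring TSS, PheRS-m alone was bound (12.5%), near the 14.0% of all such genes. No cytoplasmic gene was of this kind. The part of promoter arrangement in the difference between the compartments was not tested.

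**Figure D2:**
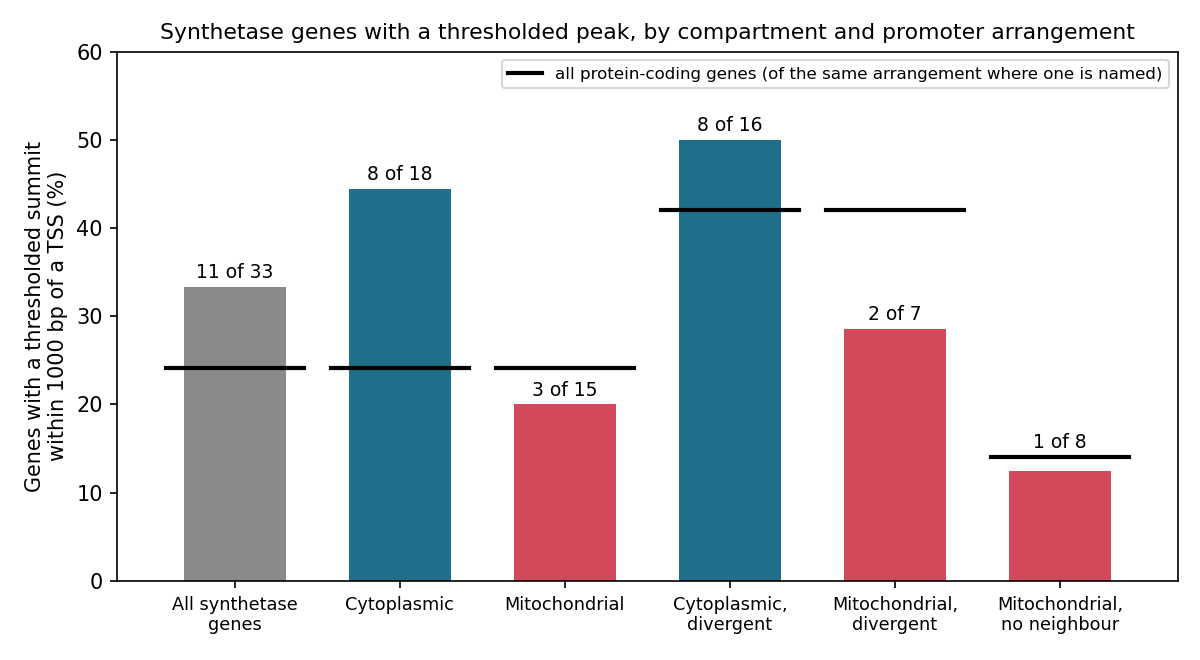
Percentage of synthetase genes with a thresholded summit within 1000 bp of a TSS, for all members, by compartment, and by compartment and promoter arrangement, with the counts above the bars. Black lines give the percentage for all protein-coding genes, 24.1% for the first 3 bars, 42.0% for genes with a divergent partner and 14.0% for genes with no neighbouring TSS.

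Number of start sites also moved with the share bound. Of the 9 synthetase genes with more than 1 annotated TSS 4 were bound, and of the 24 with 1 TSS 7 were. Over all protein-coding genes the shares were 39.0% and 18.7%. The median span was 3106 bp for the bound synthetase genes, 2744 bp for the others and 3383 bp for all bound genes.

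For 12 amino acids the fly has both a cytoplasmic and a mitochondrial gene under these symbols. The arginyl pair had both genes bound. The cytoplasmic gene alone was bound for asparagine, aspartate, isoleucine, serine and tryptophan, and the mitochondrial gene alone for leucine. Neither was bound for alanine, cysteine, methionine, tyrosine and valine. In 9 of the 12 pairs the cytoplasmic gene had the stronger relaxed summit or was the one with a summit. The exceptions were cysteine, leucine and methionine. In the leucine pair there was a thresholded peak at rank 295 for LeuRS-m and no pooled summit within 1000 bp of LeuRS. That peak lay in an intron of Dhc64C, and the peak at the LeuRS-m start ranked 2985.

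Genes were also grouped by enzyme type, beside the 24.1% of all protein-coding genes and the 42.0% of those with a divergent partner. Of the 8 cytoplasmic enzymes known in animals to belong to the multisynthetase complex, 4 genes were bound (ArgRS, AspRS, GluProRS and IleRS) and 4 were not (GlnRS, LeuRS, LysRS and MetRS). All 8 had a divergent partner. Among the 10 other cytoplasmic enzymes the bound genes were AsnRS, SerRS, ThrRS and TrpRS. Of 18 class I genes 5 were bound (27.8%), and of 14 class II genes 5 (35.7%), with GluProRS belonging to both classes. The class I share lay near that of all protein-coding genes.

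Of the 11 bound genes, 10 shared their strongest peak with another protein-coding gene whose TSS lay within 1000 bp of the summit, and PheRS-m was the exception. Over all bound protein-coding genes this share was 62.6%. It was 71.2% for bound cytoplasmic ribosomal protein genes and 97.0% for bound mitochondrial ribosomal protein genes, so such sharing was not particular to the synthetase genes. In all 10 synthetase genes the neighbour was a divergent partner. For 9 of them the strongest summit lay between the starts of the pair, the exception being LeuRS-m, whose weaker peak did. Among all 2122 bound genes with a divergent partner, the strongest summit lay between the starts in 81.2%.

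The partners encode proteins of varied function. GluProRS lies 260 bp from the start of AP-1sigma, a clathrin adaptor subunit gene, and the summit was nearer to AP-1sigma (103 bp) than to GluProRS (157 bp). IleRS faces Hem, a subunit gene of the actin-regulating WAVE complex, across 470 bp, and the summit was 108 bp from IleRS and 362 bp from Hem. TrpRS and Vps16A, which acts in vesicle fusion with the lysosome, start 115 bp apart, with the summit 49 and 66 bp from them. AsnRS is paired with the dynactin subunit gene DCTN6-p27, ArgRS with CG8578, ThrRS with Patsas, ArgRS-m with CG17816, SerRS with CG17260 and AspRS with Nmda1. Of the 14 summits, 8 had a synthetase start as the nearest protein-coding TSS and 6 a start of the partner. A peak between such starts cannot be assigned to 1 gene. With each summit given to its nearest gene, 8 synthetase genes stayed bound, and AspRS, GluProRS and LeuRS-m did not. The share of all protein-coding genes fell in the same way, from 24.1% to 17.3%. All 14 summits lay upstream of the nearest start of the synthetase gene. The stronger SerRS summit and both AspRS summits nonetheless lay inside the annotated synthetase gene, upstream of an internal start. The same count over all bound genes is not given here, so it is not read as particular to the synthetase genes.

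**Figure D3:**
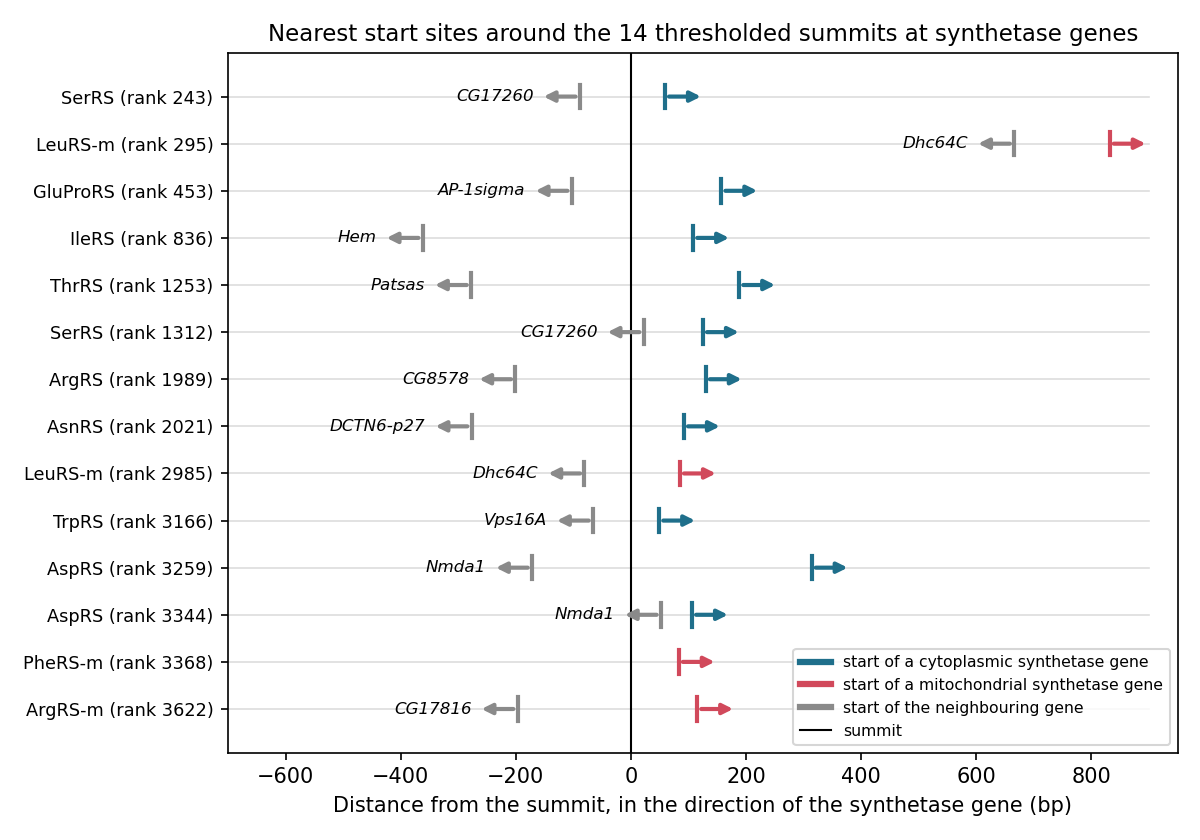
Distance in bp from each of the 14 thresholded summits (vertical line at 0) to the nearest start of the synthetase gene, drawn pointing right, and of the neighbouring gene in grey. Most synthetase starts lie 49 to 188 bp to the right of the summit, the AspRS summit of rank 3259 and the LeuRS-m summit of rank 295 are 314 and 832 bp away, and PheRS-m has no neighbour within 1000 bp.

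Most peaks of the bound synthetase genes lay close to a start. The strongest summit lay within 200 bp of a TSS at 9 of the 11 genes (81.8%), against 59.5% of all bound protein-coding genes. The median distance was 115 bp against 156 bp. Bound cytoplasmic ribosomal protein genes had 84.7% within 200 bp and a median of 35.0 bp, and mitochondrial ones 69.7% and 146 bp. All 11 synthetase genes were still bound when the distance was cut to 250 bp, where the share of all protein-coding genes fell to 17.4%. For LeuRS-m and AspRS this rests on the weaker peak of each gene.

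Both replicates placed 9 of the 14 member summits among their strongest 4537, or 64.3%, against 73.4% of all 2772 thresholded promoter summits. Across the 12 summits matched in both replicate lists within 100 bp, Spearman's rho of the ranks was 0.790, given as a description because the summits share their libraries. The weaker SerRS summit and the first AspRS summit, each without a match in 1 replicate, do not enter it. The value thus covers only summits that both replicates listed. The rank was better in replicate 2 for 8 of the 12 matched summits and in replicate 1 for 4. Matched summits lay at most 64 bp from the pooled summit. The summits outside the strongest 4537 of a replicate, or with no match there, were those of TrpRS, ArgRS-m, the weaker SerRS summit and both AspRS summits.

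**Figure D4:**
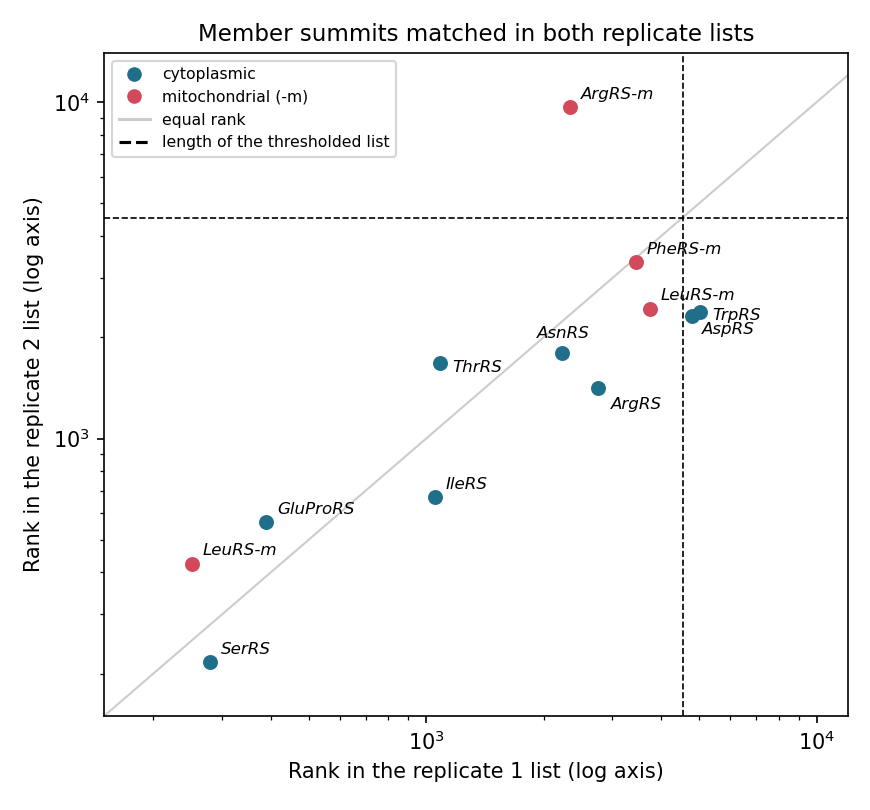
Rank in the replicate 1 list against rank in the replicate 2 list for the 12 thresholded member summits matched within 100 bp in both, on log axes; the grey line marks equal rank and the dashed lines rank 4537. ArgRS-m stands apart at ranks 2338 and 9643, and TrpRS and AspRS lie just beyond rank 4537 in replicate 1.

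Among the genes that were not bound, 3 lay just beyond the end of the thresholded list. ValRS, the valyl enzyme, had a pooled summit at rank 4768, with ranks of 4007 and 5906 for its strongest summit in replicates 1 and 2. AlaRS was at 4852, 4974 and 4891, and GlnRS at 5087, 3947 and 5645. The next was HisRS at rank 7613, where the replicates differed, with 14339 in replicate 1 and 3784 in replicate 2. The HisRS summit lay 864 bp from its start. The 16 genes with a relaxed summit only had a median rank of 15064. Of the mitochondrial enzymes among them, CysRS-m had its best summit at rank 9176, AspRS-m at 12500, ProRS-m at 14898, AlaRS-m at 15230, MetRS-m at 16361, SerRS-m at 18942 and GluRS-m at 21576, and TrpRS-m was the weakest at 29313. Of the remaining cytoplasmic enzymes, TyrRS was at rank 10387, GlyRS at 17918, MetRS at 20703 and LysRS at 21775. All of these ranked below HisRS. ValRS-m had no summit within 1000 bp in any of the 3 relaxed lists. The lists hold no read counts, so weak binding below the relaxed lists was not detectable.

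Short motifs were counted on both strands within 100 bp of the 14 summits. The E-box CAGCTG, a site class read by helix-loop-helix proteins, was found in 6 windows (42.9%), those of ArgRS, IleRS, TrpRS, the near LeuRS-m peak and both SerRS peaks. It was in 14.0% of the 2772 thresholded promoter windows and in 13.6% of relaxed promoter windows. At the weaker SerRS peak it lay 1 bp from the summit, and at IleRS 31 bp. At the other peaks it lay near the window edge, outside the printed sequences. Its offsets from the summit in chromosome coordinates were -77 bp at the stronger SerRS peak and -86 bp at ArgRS. They were 80 bp at TrpRS and 97 bp at the near LeuRS-m peak. The DRE, an element of many housekeeping promoters, was found in 4 windows (28.6%), those of AspRS, IleRS, PheRS-m and TrpRS, against 7.65% of thresholded and 3.59% of relaxed promoter windows. At TrpRS it lay 19 bp from the summit, as the capitals of its sequence show, and at the other genes 69 to 91 bp away. The same 4 windows held ATCGATA, which every DRE contains, against 14.9% of thresholded and 8.03% of relaxed promoter windows. GluProRS alone held ACAGTGG, against 8.15% of thresholded and 3.88% of relaxed promoter windows. A match is a description of these letters and not evidence of a bound site.

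Genes that work with the synthetases were taken from a list of related factors. Of 17 listed genes 16 were matched to the annotation, with no match for Mtfmt, and 6 of the 16 were bound, beside 24.1% of all protein-coding genes. The other 10 had a relaxed pooled summit, which 60.2% of all protein-coding genes had with the thresholded ones included. GatA and GatC encode subunits of the amidotransferase that makes glutaminyl-tRNA in mitochondria. GatA had a signal of 208 and ranks of 736 in the pool, 671 in replicate 1 and 822 in replicate 2, and GatC a signal of 127 and ranks of 1900, 1855 and 2378. Both peaks had other genes' TSSs within 1000 bp, P5cr for GatA and PolG2 and Polr2C for GatC. The third subunit gene, GatB, had a relaxed summit at rank 24722.

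In the multisynthetase complex, the scaffold gene AIMP1 was bound (signal 113, pooled rank 2287), and AIMP2 and AIMP3 had relaxed summits at ranks 13070 and 11877. The AIMP1 peak also lay within 1000 bp of a TSS of PAN2. Of the cytoplasmic phenylalanyl enzyme, beta-PheRS was bound 17 bp from its start (signal 95.0, rank 2972) and alpha-PheRS was not (rank 12732). The 2 subunits of this enzyme thus differed. Slimp, a SerRS paralogue, lay just beyond the threshold at rank 4621.

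Of the genes that respond to uncharged tRNA or act downstream in translation, Thor, the fly 4E-BP gene, was bound (signal 138, rank 1651, 15 bp from its start). The kinase gene Gcn2 and crc, which encodes ATF4, had relaxed summits at ranks 16841 and 5303. The elongation factor gene eEF1alpha1 was bound at rank 1512, while eEF1alpha2, mEFTu1 and mEFTs had relaxed summits only.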

How the data were processed

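Peak lists on build dm6 were used for the pool of both replicates (relaxed and thresholded) and for each replicate. The authors called peaks per replicate and on both replicates together, with 1 control, and derived the thresholded set from the resulting lists, per the file inventories deposited. Aligner and caller were not given in the sources used here. Peaks were ranked within a list by the deposited signal value, and the deposited −log10 q-value saturated at 3.89 and was not used. The thresholded set was the 4537 highest-signal peaks of the pooled list. The lists hold no read counts and the depth is unknown. Chromatin was sonicated to 200 to 800 bp, per the labels. The dm3 lists were not used here.

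Summits were compared with TSSs of protein-coding genes (Ensembl 115, BDGP6.54), after peak ends were checked against the Release 6 chromosome lengths. Replicate summits were matched within 100 bp. Sequences came from the RefSeq Release 6 genome, and motifs were sought within 100 bp of summits. Members, related genes, enzyme types and motifs were chosen with earlier results of these data known. Every member is named, with the rank of its strongest pooled summit where it had one. No statistical test was run. Alternatives covered distance, stricter peaks, single replicates, start definition, gene assignment and interval overlap. Gene assignment was tested on simulated data. Computation used Python 3.11.15, numpy 2.4.6, scipy 1.17.1 and matplotlib 3.10.9.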

Additional observations from a re-analysis of the deposited data

How the results depend on the processing

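Of 45 alternative values, 40 stayed within 1.5 times the count or share reported or, for the median rank, within 428 ranks, the SD between the replicate lists. The median ranks of the single-replicate lists set that SD, so their staying within it is not a check. The factor of 1.5 is wide for small counts. With each summit given to its nearest gene, 8 genes were bound, 6 of them cytoplasmic and 2 mitochondrial, and 17.3% of all protein-coding genes. Among the 1000 strongest peaks, 4 synthetase genes were bound in place of 11, 3 of them cytoplasmic and 1 mitochondrial, and the share of all protein-coding genes was 7.15%; fewer peaks enter by construction. With 250 bp allowed to the other gene's TSS, 6 in place of 10 strongest peaks were shared. Over the lists without replicate 1 or without replicate 2, 11 to 12 genes were bound, 9 and 9 cytoplasmic, 2 to 3 mitochondrial, and the median rank ran from 1675 to 2280. Without replicate 2, GlnRS and ValRS were gained and TrpRS was lost, and without replicate 1, HisRS was gained and ArgRS-m was lost. ArgRS, AsnRS, IleRS, PheRS-m, SerRS and ThrRS were bound under each alternative other than the 1000 strongest peaks. No paired analysis was possible because there was 1 group. Depth is unknown, so a gene without a listed summit cannot be told from one with weak binding.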
